A study of Mus musculus with 24 samples.

Results

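Bone marrow-derived dendritic cells carrying the conditional deletion of Arpc4 were compared between day 9 and day 8 of culture. The comparison took 6 of the 24 libraries of the series, namely those titled KO64, KO67 and KO68 on day 8 and on day 9, and covered every expressed gene, which left 14535 genes tested of the 55487 in the count table. The series followed the culture on days 7, 8, 9 and 10 in control and knockout cells to ask how loss of Arpc4 affects dendritic cell differentiation. The genotype of the knockout (KO) mice was ARPC4 Flox/Flox CD11c-Cre +/- and that of the controls (WT) was ARPC4 Flox/Flox CD11c-Cre -/-, so the floxed alleles were present in both genotypes and the Cre transgene only in the KO. The CD11c promoter drives this Cre, so deletion depends on a cell having turned CD11c on and is not shared by every cell of a culture. Marrow came from male and female mice of 8 to 10 weeks and was grown with GM-CSF. Cells in suspension were kept at the replatings and the attached cells were discarded. Each group held 3 libraries, each named by a mouse number, and the WT libraries of mice 63, 65 and 66 on the same days are given only beside the KO values.

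Arpc4 encodes a subunit of the Arp2/3 complex, which starts new branches on existing actin filaments and is used for lamellipodia, phagocytosis and nuclear movement through narrow spaces. Marrow cells in GM-CSF pass from dividing progenitors to a mixed culture of dendritic cells and macrophages, in which granulocytes and other myeloid cells can persist. In such cells the transcription factor NF-kB drives inflammatory genes and also its own inhibitors, among them IkB alpha and A20, so the messages of these inhibitors are commonly used as a readout of the pathway. NRF2 is the transcription factor that induces glutathione and thioredoxin enzymes under oxidative stress, and dividing cells are recognised in RNA by genes of DNA replication and mitosis.

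The 3 day 8 KO libraries held 24030705 to 27970417 counts and the 3 day 9 KO libraries 28210108 to 30903057. Levels below are CPM (counts scaled to library size with TMM factors), listed in the order KO64, KO67, KO68. Arpc4 itself (chr6:113378115-113390448 in GRCm38, plus strand) stood at 230, 231 and 223 CPM on day 8 and at 199, 201 and 204 CPM on day 9 in KO, against 270, 246 and 265 and then 238, 219 and 226 CPM in WT. Every KO library was below every WT library of its day, by little. Counts over the whole gene do not separate the floxed exons, so they are a limited check of the deletion. Of the dendritic cell markers, Itgax, which encodes CD11c, stood at 953, 771 and 750 CPM on day 8 and at 1290, 1010 and 1270 CPM on day 9 (log2 fold change 0.53 ± 0.17, adjusted p = 0.0852). Cd74, the invariant chain of MHC class II, ranged from 1290 to 3390 CPM over the 6 libraries, and both markers were abundant in each of them. The mouse numbers did not follow the sex-linked transcripts in KO. The Y-linked Ddx3y was at 59.2 CPM in KO68 on day 8 and at 63.2 CPM in KO64 on day 9, and at 0.101 CPM or less in the other 4 libraries. In WT it was high in mouse 63 on both days. The libraries labelled KO64 on day 8 and KO64 on day 9 thus did not share this transcript, nor did those labelled KO68, and whether numbers were exchanged was not tested. KO numbers below are used as labels of libraries and are not taken to name the same mouse on both days. The libraries were therefore compared as unpaired samples, and p-values measure the spread between libraries within groups, pooled over the 8 groups of the series.

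Between day 8 and day 9, 338 genes passed the test in KO, 190 of them higher and 148 lower on day 9. That is 2.33% of the genes tested, 1.31% higher and 1.02% lower. The test was edgeR's quasi-likelihood F test over all 24 libraries with Benjamini-Hochberg adjustment at 0.05, and every adjusted p below comes from it unless another source is named. Fold changes are log2 values of 3 against 3 libraries ± SE, where the SE rests on that pooled spread and can be smaller than the 6 KO libraries alone would give. The genes that rose were on median less abundant than those that fell. The median change of the 190 was 0.75 at a median average level of 4.18 log2 CPM, and that of the 148 was -0.47 at 5.87 log2 CPM, against 4.16 log2 CPM over all genes tested. The genes that rose together held 0.388, 0.448 and 0.347% of the deposited TPM on day 8 and 0.57, 0.728 and 0.691% on day 9. Those that fell held 1.36, 1.3 and 1.26% on day 8 and 0.958, 1.01 and 0.939% on day 9. These shares were chosen by the same contrast and are a description of its size. In 324 of the 338 genes the day 8 and day 9 libraries did not overlap, compared with 16.8% of all genes tested. A log2 change of 1 or more in size was reached by 55 of the genes that rose and 20 of those that fell.

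The number of genes called depended strongly on single libraries. KO libraries varied more among themselves than WT libraries: the median SD of a gene's log2 CPM was 0.154 on day 8 and 0.122 on day 9 in KO, and 0.0973 and 0.1 in WT. Without KO64 of day 8 the count was 71, without KO67 of day 9 it was 96, and without KO68 of day 9 it was 41. Without KO67 of day 8 it rose to 707 and without KO64 of day 9 to 906, whereas without KO68 of day 8 it was 327. Leaving out the library with high Ddx3y in each group gave 852 genes. A fit on the 6 KO libraries alone called 0 genes with edgeR, although 1729 were at an unadjusted p under 0.05, and the DESeq2 Wald test on all libraries called 898. Of 65 called genes that the naming rule picked, 18 kept an adjusted p under 0.05 with each KO library left out in turn. Those 18 were Sod2, Nfkbia, Tnfaip2, Traf3, Icam1, Gclm, Sdc4, Acsl1, Ms4a4a and Gp5 among the genes that fell, and Tpcn1, Txndc16, Man2a2, Iqgap2, Cenpa, Chaf1b, Epx and Rgs2 among those that rose.

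**Figure D1:**
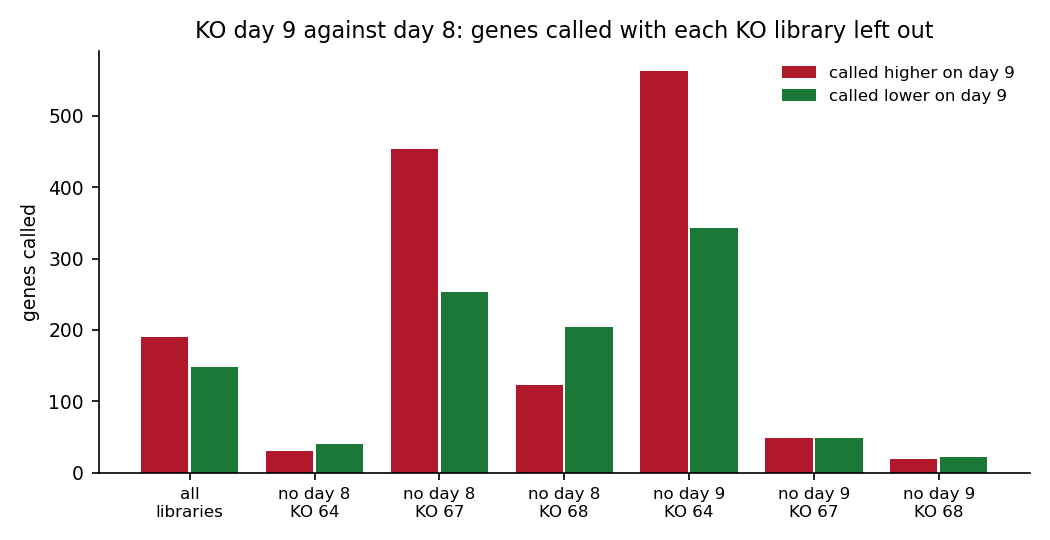
Number of genes called between day 9 and day 8 in KO (y axis, edgeR quasi-likelihood test, adjusted p under 0.05), split into genes higher and lower on day 9, for the fit on all libraries and with each KO library left out in turn (x axis). The total ranges from 41 without KO68 of day 9 to 906 without KO64 of day 9.

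Genes of the NF-kB pathway were among those that fell. Of 25 tested members of the list, 7 fell, 0 rose and 24 had a negative change, with a list median of -0.35 against 0.0016 over all genes. The 7 were Sod2, Tnfaip2, Nfkbia, Tnfaip3, Tnip1, Bcl3 and Nfkbie, and the cytokines Tnf and Il1b did not pass. Sod2, the manganese superoxide dismutase of mitochondria (chr17:13006846-13040063 in GRCm38, plus strand), stood at 286, 215 and 250 CPM on day 8 and at 153, 122 and 129 CPM on day 9. All day 9 libraries lay well below all day 8 libraries, a change of -0.89 ± 0.10 (adjusted p = 0.000111), and Sod2 was with Tpcn1 among the genes of smallest p in this comparison. Nfkbia, which encodes the inhibitor IkB alpha (chr12:55489410-55492647, minus strand), stood at 180, 183 and 198 CPM on day 8 and at 116, 121 and 106 CPM on day 9 (-0.71 ± 0.12, adjusted p = 0.00305). Its 3 libraries were close together on each day. Tnfaip2, a TNF-induced protein of membrane protrusions, stood at 660, 630 and 737 CPM and then at 440, 442 and 420 CPM (-0.64 ± 0.08, adjusted p = 0.000486). These 3 genes kept their call with any KO library left out.

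The other members of the pathway that fell changed by less or rested on fewer libraries. Traf3, an adaptor that restrains the alternative NF-kB pathway, stood at 82.1, 83.5 and 82.2 CPM on day 8 and at 59.1, 65.2 and 56.7 CPM on day 9 (-0.45 ± 0.06, adjusted p = 0.000265). Icam1, the adhesion molecule that binds LFA-1, stood at 235, 213 and 235 CPM and then at 173, 163 and 158 CPM (-0.47 ± 0.07, adjusted p = 0.00204). In both, the lowest day 8 library was clearly above the highest day 9 library. Tnfaip3, which encodes the ubiquitin-editing inhibitor A20, fell by 0.50 ± 0.08 (adjusted p = 0.0034), from 61.3 to 70.2 CPM down to 44.7 to 51.8 CPM. Tnip1, a partner of A20, fell by 0.33 (adjusted p = 0.0147), Bcl3, an atypical IkB protein of the nucleus, by 0.56 (adjusted p = 0.0159), and Nfkbie, which encodes IkB epsilon, by 0.73 (adjusted p = 0.0308). The Nfkbie libraries ran from 65.4 to 77.5 CPM on day 8 and from 35.6 to 55.4 CPM on day 9, highest in KO67 on both days. Of the subunits themselves, Nfkb2, the precursor of p52, stood at 120, 133 and 124 CPM and then at 81.3, 98.8 and 74 CPM (-0.57 ± 0.11, adjusted p = 0.0127), a call lost without KO68 of day 9 (adjusted p = 0.0918). Relb, the partner of p52, fell by 0.69 (adjusted p = 0.0363). Birc3, an inhibitor of apoptosis induced by NF-kB, fell by 0.51 ± 0.11 (adjusted p = 0.0219) but did not pass without KO64 of day 8 or without KO68 of day 9. The values for Rela, Nfkb1 and Rel were -0.17, -0.15 and -0.14 (adjusted p = 0.23, 0.547 and 0.745). Tnf stood at 109, 132 and 111 CPM and then at 81.8, 122 and 71.2 CPM, with overlap (-0.35, adjusted p = 0.379), and Il1b at 25.9 to 28.6 and then 13.2 to 17 CPM, without overlap (-0.89, adjusted p = 0.0948).

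The mean level of the NF-kB list separated the days in every library, at 5.42, 5.44 and 5.37 log2 CPM on day 8 and 5.00, 5.05 and 4.89 log2 CPM on day 9. Between 4 and 8 of its members were called as each KO library was left out, the lowest count without KO68 of day 9. The promoters of 3 members that fell are shown because each holds 1 match to the kappa-B motif, the sequence that NF-kB dimers bind, given in capitals. They run from 250 bases before to 50 after the start site on GRCm38.p6, from RefSeq: Nfkbia at chr12:55492598-55492897 on the minus strand, Sod2 at chr17:13007589-13007888 on the plus strand and Bcl3 at chr7:19822706-19823005 on the minus strand.
Nfkbia: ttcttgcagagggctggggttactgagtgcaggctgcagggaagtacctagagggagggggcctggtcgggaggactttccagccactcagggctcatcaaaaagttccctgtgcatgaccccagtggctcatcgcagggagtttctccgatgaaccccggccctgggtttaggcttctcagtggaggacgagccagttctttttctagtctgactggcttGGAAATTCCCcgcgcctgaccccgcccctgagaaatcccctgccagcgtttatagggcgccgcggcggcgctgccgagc
Sod2: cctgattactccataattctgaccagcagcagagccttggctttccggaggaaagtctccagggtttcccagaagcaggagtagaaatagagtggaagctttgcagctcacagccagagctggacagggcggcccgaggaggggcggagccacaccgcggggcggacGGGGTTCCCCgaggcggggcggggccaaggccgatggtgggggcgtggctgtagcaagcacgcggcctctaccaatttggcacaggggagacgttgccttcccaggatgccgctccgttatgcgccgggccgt
Bcl3: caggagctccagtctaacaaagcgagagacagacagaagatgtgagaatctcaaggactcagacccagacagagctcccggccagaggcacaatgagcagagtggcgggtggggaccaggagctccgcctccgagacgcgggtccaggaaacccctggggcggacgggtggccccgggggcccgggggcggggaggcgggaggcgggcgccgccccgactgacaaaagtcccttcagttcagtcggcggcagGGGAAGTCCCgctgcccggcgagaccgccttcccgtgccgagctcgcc
Both strands were searched, and this motif was chosen after the values were seen. It was found in the promoters of 12 of 22 members with an entry (54.5%), among them all 7 that fell, compared with 12.3% of the 10521 tested genes with a promoter and 9.55% of all 27025 promoters. In the dendritic cell maturation list, searched in the same way, it was found in 4 of 30 promoters (13.3%) and in 1 of 3 called members with an entry (Nfkb2). A match is a description of the letters and not evidence of binding in these cells. The list was chosen as genes of the NF-kB pathway, so its share of matches describes the list and not why members fell.

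Members of the NRF2 list were also among the genes that fell. Of 24 tested members 4 fell, 0 rose and 23 had a negative change (median -0.35, or -0.14 without KO68 of day 8). Its mean level overlapped between days, at 7.53, 7.36 and 7.76 log2 CPM on day 8 and 7.39, 7.03 and 7.22 log2 CPM on day 9. The members that fell were Gclm and Gclc, the modifier and catalytic subunits of the enzyme that starts glutathione synthesis, Txnrd1, the cytosolic thioredoxin reductase, and Abcc1, a pump that exports glutathione conjugates. Gclm stood at 106, 93 and 113 CPM on day 8 and at 72.4, 55.1 and 66.1 CPM on day 9 (-0.69 ± 0.11, adjusted p = 0.00305), with no overlap. Abcc1 stood at 214, 200 and 186 CPM and then at 160, 155 and 140 CPM (-0.40 ± 0.07, adjusted p = 0.00433). Gclc stood at 43.9, 43.4 and 42.7 CPM and then at 35.8, 31.6 and 32.1 CPM (-0.39 ± 0.07, adjusted p = 0.0116). The day 8 values of Gclc differed very little from each other. Txnrd1 fell by 0.55 ± 0.11 (adjusted p = 0.0146). Hmox1, the heme oxygenase, stood at 264, 195 and 403 CPM and then at 306, 149 and 218 CPM, with overlap (-0.36, adjusted p = 0.512), and Nqo1, a quinone reductase, had -0.42 (adjusted p = 0.222). Nfe2l2, the gene of NRF2 itself, fell by 0.28 ± 0.07 (adjusted p = 0.0345), from 339 to 363 CPM down to 284 to 295 CPM. As each KO library was left out, 1 to 9 members were called, the lowest count without KO68 of day 9 and the highest without KO64 of day 9. Gclm was called in each case, Abcc1 was lost without KO68 of day 9 (adjusted p = 0.0587), and Gclc without KO64 of day 8, KO67 of day 9 or KO68 of day 9.

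The promoter of Gclm is shown for its match, in capitals, to TGACNNNGC, the core of the antioxidant response element that NRF2 binds, here in the reverse direction (GRCm38.p6, RefSeq, chr3:122245307-122245606, plus strand).
Gclm: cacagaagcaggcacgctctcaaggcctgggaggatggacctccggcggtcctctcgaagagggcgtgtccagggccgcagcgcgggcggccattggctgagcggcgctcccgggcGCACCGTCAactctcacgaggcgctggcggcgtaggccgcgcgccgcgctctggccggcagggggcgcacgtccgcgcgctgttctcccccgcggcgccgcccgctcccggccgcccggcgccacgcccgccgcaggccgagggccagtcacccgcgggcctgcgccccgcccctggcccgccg
Both strands were searched. The core was found in 8 of 19 members with a promoter entry (42.1%), in both called members that had one (Gclm and Txnrd1), in 17% of tested genes and in 14% of all promoters. The list was chosen as NRF2 targets, so this share too describes the list, and a match is not evidence of binding.

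Clec4e, the receptor Mincle for mycobacterial glycolipid, stood at 121, 110 and 85.4 CPM on day 8 and at 47, 54 and 44.3 CPM on day 9 (-1.12 ± 0.23, adjusted p = 0.0148). Clec5a, a receptor that signals through DAP12, stood at 183, 167 and 160 CPM and then at 127, 123 and 126 CPM (-0.44 ± 0.11, adjusted p = 0.041). The day 9 libraries lay below the day 8 libraries in both, and these were the 2 called of 14 C-type lectin receptors tested (list median -0.24, or -0.36 without KO68 of day 8). Neither was called without KO64 of day 8 or without KO68 of day 9. Csf1r, the receptor of the macrophage growth factor M-CSF, stood at 1220, 1090 and 1240 CPM and then at 974, 919 and 913 CPM (-0.34 ± 0.07, adjusted p = 0.0192). It was the 1 called of 26 macrophage markers, whose median of -0.25 was -0.04 without KO68 of day 8 and -0.47 without KO67 of day 8, and it too was lost without KO64 of day 8, KO67 of day 9 or KO68 of day 9. Ms4a4a, a membrane protein of macrophages, stood at 49.5, 39.7 and 68.4 CPM and then at 22.7, 21.8 and 22.4 CPM (-1.24 ± 0.17, adjusted p = 0.000589). Its day 9 libraries were nearly equal. Ptger4, a receptor of prostaglandin E2, stood at 44.3, 45.5 and 45.6 CPM and then at 36.2, 30.2 and 30.3 CPM (-0.48 ± 0.09, adjusted p = 0.00773), a call lost without KO68 of day 9 (adjusted p = 0.0587). Fas, the death receptor, was the only called member of 30 p53 targets (-0.59 ± 0.12, adjusted p = 0.015), and it was lost without KO64 of day 8 or KO68 of day 9. For these list counts, the share that fell over all genes tested was 1.02%.

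The genes with the smallest p among the falls also included Sdc4 and Acsl1. Sdc4, the heparan sulfate proteoglycan syndecan-4 (chr2:164424247-164443887, minus strand), stood at 56.8, 47.3 and 66.4 CPM on day 8 and at 28.2, 21.2 and 22.8 CPM on day 9 (-1.24 ± 0.14, adjusted p = 0.000134). Acsl1, which couples long-chain fatty acids to coenzyme A, stood at 156, 135 and 158 CPM and then at 103, 94.3 and 92.6 CPM (-0.63 ± 0.07, adjusted p = 0.000134). Both were separated by day in every library and kept their call with any KO library left out. Il1f9, which encodes the cytokine IL-36 gamma, stood at 31.1, 26.1 and 26 CPM and then at 14.6, 11 and 12.1 CPM (-1.14 ± 0.23, adjusted p = 0.0149), and was lost without KO64 of day 8, KO67 of day 9 or KO68 of day 9.

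Of 40 dendritic cell maturation genes tested, 4 fell and 0 rose. The 4 were Icam1, Nfkb2, Birc3 and Relb, described above. As single KO libraries were left out, the count went down to 2 without KO64 of day 8 and to 1 without KO68 of day 9. The list median was -0.25, and it moved from -0.50 without KO67 of day 9 to 0.17 without KO67 of day 8. Ccr7, the chemokine receptor of migrating dendritic cells, stood at 61.2, 151 and 50.9 CPM on day 8 and at 47.3, 110 and 58.9 CPM on day 9 (adjusted p = 0.733). Cd86, a costimulatory ligand, stood at 33, 52.8 and 31.4 CPM and then at 29.8, 55.3 and 31.9 CPM (adjusted p = 0.997). KO67 was the highest library for both genes on each day. Of 18 genes of MHC class II presentation 12 had a positive change, with a median of 0.34 that ranged from 0.03 without KO67 of day 9 to 0.48 without KO64 of day 9. By the adjusted test 0 rose and 1 fell, March1, a ubiquitin ligase that removes MHC class II from the surface, at 215, 191 and 157 CPM and then 142, 123 and 130 CPM (-0.51 ± 0.12, adjusted p = 0.0316). That call was lost without KO64 of day 8, KO67 of day 9 or KO68 of day 9. H2-Ab1, a class II chain, stood at 373, 630 and 266 CPM and then at 328, 981 and 568 CPM, with overlap (0.56 ± 0.36, adjusted p = 0.423). Ifi205, a member of the interferon-inducible p200 family, was the 1 called of 56 interferon-stimulated genes (-1.0 ± 0.24, adjusted p = 0.035). Over all genes tested, 1.02% fell by the same test. Of those 56, 51 had a negative change, with a median of -0.18 that ranged from -0.33 without KO67 of day 9 to -0.06 without KO64 of day 8, and the number called went from 0 to 4 as single KO libraries were left out (0 without KO64 of day 8, KO64 of day 9 or KO68 of day 9, 2 without KO67 and 4 without KO68 of day 8). The mean level of that list overlapped between the days, at 5.46, 5.23 and 4.96 log2 CPM on day 8 and 4.81, 5.27 and 4.83 log2 CPM on day 9.

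Genes of DNA replication were among those that rose. Of 54 tested members 12 rose and 0 fell, all 54 had a positive change and the median was 0.69. The mean level of the list was 4.03, 4.44 and 3.62 log2 CPM on day 8 and 4.34, 5.08 and 4.88 log2 CPM on day 9, so KO64 of day 9 lay below KO67 of day 8. Chaf1b, a subunit of the chromatin assembly factor that loads histones behind the fork, stood at 10.8, 13.5 and 9.8 CPM on day 8 and at 16.8, 23.6 and 22.5 CPM on day 9 (0.88 ± 0.15, adjusted p = 0.00466). It kept its call with any KO library left out. Its partner Chaf1a rose by 1.00 (adjusted p = 0.0308). Fen1, the flap nuclease that trims Okazaki fragments, stood at 32.4, 43.3 and 30.6 CPM and then at 44.4, 65.7 and 57 CPM (0.65 ± 0.15, adjusted p = 0.0282). Rfc2, a subunit of the clamp loader, stood at 35, 41.1 and 40.8 CPM and then at 46.6, 53.9 and 53.9 CPM (0.40 ± 0.08, adjusted p = 0.0159). Rfc2 and Fen1 overlap Lat2 and Tmem258 on the other strand, and since the strand setting of the counting is not given, their counts are less certain. The remaining members that rose were Rrm2 and Tk1, which supply deoxynucleotides, Mcm3 of the replicative helicase, Gins1 and Gins2 of its activating complex, Rfc3, Lig1, the DNA ligase, and Gmnn, the inhibitor of re-replication, with changes from 0.56 for Rfc3 to 1.5 for Tk1.

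Among the lists with at least 5 tested members, mitosis had the highest median change. Of 70 tested members 69 had a positive change, with a median of 1.13. At an unadjusted p under 0.05, 65 were higher, compared with 1490 of all 14535 genes. By the adjusted test 5 rose (Cenpa, Cdc25b, Incenp, Anln and Ttk). The mean level of the list was 3.68, 4.42 and 2.9 log2 CPM on day 8 and 4.18, 5.24 and 4.96 log2 CPM on day 9. KO68 was the lowest library on day 8 and KO64 the lowest on day 9, and the days overlapped. Cenpa, the histone H3 variant that marks centromeres, stood at 28.9, 32 and 28.6 CPM on day 8 and at 42.3, 61.9 and 57 CPM on day 9 (0.85 ± 0.13, adjusted p = 0.00155), with no overlap. Cdc25b, the phosphatase that activates CDK1, stood at 16.7, 19.1 and 14.2 CPM and then at 22.1, 38.6 and 37 CPM (0.97 ± 0.23, adjusted p = 0.0365). Incenp, the scaffold of the Aurora B complex, stood at 44, 59.1 and 38.7 CPM and then at 58.2, 99.6 and 86.3 CPM, with overlap (0.78 ± 0.19, adjusted p = 0.0401). Cdc25b and Incenp were lost without KO64 of day 8, KO68 of day 8, KO67 of day 9 or KO68 of day 9. Mki67, the proliferation marker, did not pass, at 130, 200 and 67.1 CPM and then 169, 322 and 254 CPM (0.91 ± 0.31, adjusted p = 0.111), nor did Top2a, topoisomerase II alpha (1.15 ± 0.38, adjusted p = 0.104). In both, KO64 of day 9 was below KO67 of day 8.

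How many proliferation genes were called turned on which library was present. The replication count of 12 was 1 without KO64 of day 8, 2 without KO68 of day 8, 1 without KO67 of day 9 and 1 without KO68 of day 9, and it was 35 without KO67 of day 8 and 44 without KO64 of day 9. The mitosis count of 5 was 1, 1, 1 and 1 in the same 4 fits, and 60 without KO67 of day 8 and 50 without KO64 of day 9. The medians kept their sign in all of these fits, between 0.51 and 0.91 for replication and between 0.81 and 1.66 for mitosis. In bulk RNA, a change in the share of dividing cells and a change of RNA per cell cannot be told apart.

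Promoters of Cenpa and Rfc3 are shown for the elements by which cell cycle genes are grouped (GRCm38.p6, RefSeq; Cenpa at chr5:30666636-30666935, plus strand, and Rfc3 at chr5:151651159-151651458, minus strand). The capitals in Cenpa mark TTTGAA, the letters of the cell cycle homology region found in genes of G2 and mitosis, and those in Rfc3 mark TTTCGCGC, a form of the site of E2F factors.
Cenpa: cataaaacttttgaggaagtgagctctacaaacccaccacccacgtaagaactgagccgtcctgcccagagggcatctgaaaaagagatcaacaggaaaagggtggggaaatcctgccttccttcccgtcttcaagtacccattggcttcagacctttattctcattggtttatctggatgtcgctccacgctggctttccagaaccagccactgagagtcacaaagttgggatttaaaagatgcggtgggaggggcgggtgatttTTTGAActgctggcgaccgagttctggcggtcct
Rfc3: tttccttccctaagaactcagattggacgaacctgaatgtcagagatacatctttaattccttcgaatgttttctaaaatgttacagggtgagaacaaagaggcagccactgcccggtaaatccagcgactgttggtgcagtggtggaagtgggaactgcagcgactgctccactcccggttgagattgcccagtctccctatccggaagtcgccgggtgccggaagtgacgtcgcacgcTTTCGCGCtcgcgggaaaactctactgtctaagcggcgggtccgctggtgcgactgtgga
On either strand, TTTGAA was present in 38 of 58 mitosis members with an entry (65.5%) and in 5 of 42 replication members (11.9%), against 14.8% of tested genes and 20.2% of all promoters. TTTCGCGC was present in 8 of 42 replication members (19%) and in 1 of 58 mitosis members (1.72%), against 0.77% of tested genes and 0.374% of all promoters. The other E2F form searched, TTTGGCGC, was present in 6 of 42 replication members (14.3%) and in 2 of 58 mitosis members (3.45%), against 1.07% of tested genes and 0.585% of all promoters. Matches to the 3 motifs can overlap at their ends, and the counts describe sequence only.

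**Figure D2:**
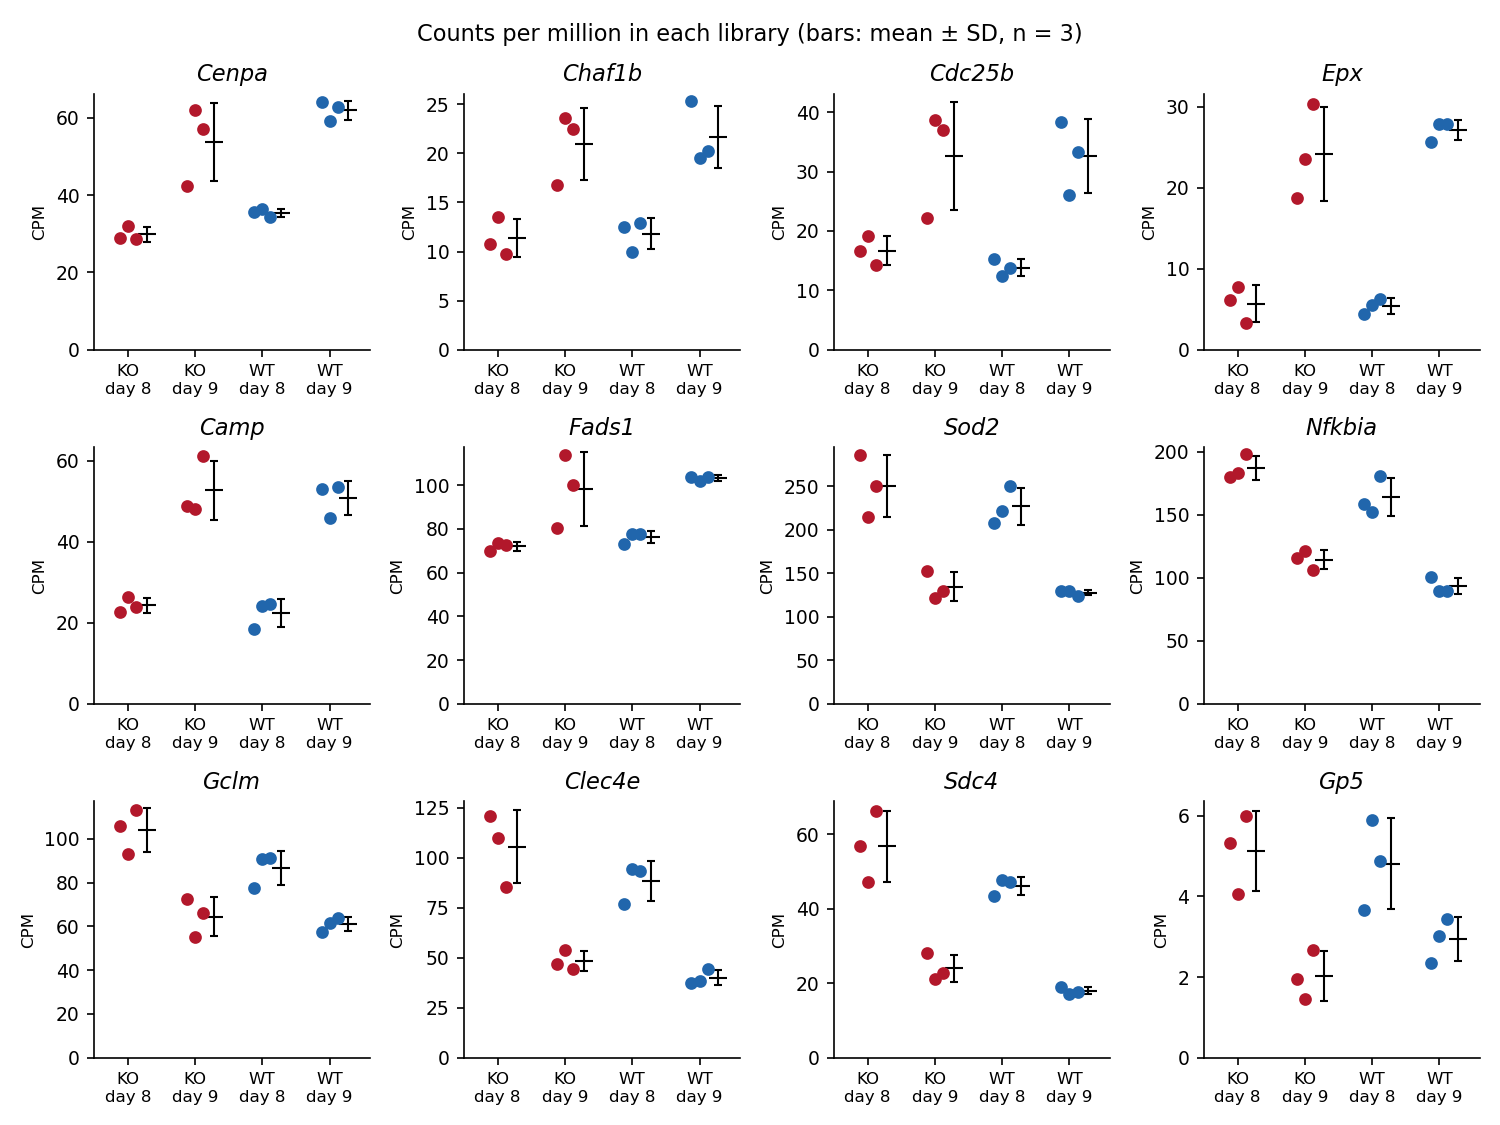
CPM (y axis, linear from 0) of 12 genes in each KO library (red points) and WT library (blue points) on day 8 and day 9, with bars for the mean ± SD of 3 libraries. In KO each of the 6 genes that fell (Sod2, Nfkbia, Gclm, Clec4e, Sdc4 and Gp5) and the 6 that rose is separated by day without overlap.

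Chek2 and Fanca, both of the DNA damage response, also rose. They are given as single genes, and the tally of their list is not reported here. Chek2, a checkpoint kinase, stood at 20.1, 19.6 and 19.5 CPM on day 8 and at 24.3, 23.9 and 24.6 CPM on day 9 (0.30 ± 0.06, adjusted p = 0.0148). The change was small and the libraries of each day lay close together, yet the call was lost without KO68 of day 9 (adjusted p = 0.0792). Fanca, of the Fanconi core complex, stood at 10.9, 14.5 and 8.92 CPM and then at 15.5, 25.6 and 21.8 CPM (0.87 ± 0.20, adjusted p = 0.0271), and it overlaps Zfp276 on the other strand. Fanca was lost without KO64 of day 8, KO68 of day 8, KO67 of day 9 or KO68 of day 9.

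Of 25 neutrophil markers tested 5 rose and 0 fell, and of 10 eosinophil markers 3 rose and 0 fell. Epx, the eosinophil peroxidase (chr11:87864000-87875536, minus strand), stood at 6.14, 7.74 and 3.25 CPM on day 8 and at 18.7, 23.6 and 30.3 CPM on day 9 (2.07 ± 0.34, adjusted p = 0.0034), and kept its call with any KO library left out. Prg3, a granule protein of eosinophils, had a change of 1.5 ± 0.37 (adjusted p = 0.0419) and Siglecf, an inhibitory lectin on their surface, of 0.77 ± 0.18 (adjusted p = 0.0284). These were the 3 called of 10 eosinophil markers, all 10 of them with a positive change, and their summed level was 85.3 to 110 CPM on day 8 and 132 to 197 CPM on day 9. Camp, the granule peptide cathelicidin, stood at 22.6, 26.4 and 23.8 CPM and then at 48.7, 48.1 and 61.1 CPM (1.12 ± 0.28, adjusted p = 0.0401). Padi4, the deiminase of neutrophil extracellular traps, stood at 39.2, 55.2 and 40.2 CPM and then at 67.5, 67 and 64.1 CPM (0.56 ± 0.13, adjusted p = 0.0271). Cebpe, the transcription factor of late granulocyte maturation, stood at 13.2, 15.8 and 12.3 CPM and then at 21.3, 22.9 and 24.4 CPM (0.73 ± 0.18, adjusted p = 0.0401). In all 3 the days did not overlap. With Lrg1 and Wfdc21 they made 5 called of 25 neutrophil markers (median 0.54), whose summed level was 4410 to 5570 CPM on day 8 and 5770 to 6480 CPM on day 9. The abundant myeloid granule genes Mpo, Elane and S100a8 did not pass (adjusted p = 0.302, 0.218 and 0.554) and overlapped between days. The neutrophil count was 0 without KO64 of day 8, KO68 of day 8, KO67 of day 9 or KO68 of day 9, and the eosinophil count was 1 in each of those fits, leaving Epx.

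Of 10 osteoclast markers tested 3 rose and 0 fell. Ocstamp, needed for cell fusion, stood at 1.73, 0.469 and 1.35 CPM and then at 6.37, 2.33 and 4.84 CPM (1.94 ± 0.50, adjusted p = 0.0448). Dcstamp, its relative in osteoclasts and dendritic cells, stood at 26.1, 16.7 and 22.6 CPM and then at 38.4, 30.5 and 39.6 CPM (0.73 ± 0.17, adjusted p = 0.0303). Ckb, the brain-type creatine kinase, stood at 40.2, 48.7 and 50.9 CPM and then at 91.6, 77.6 and 74 CPM (0.80 ± 0.16, adjusted p = 0.0148). All 3 were higher in each day 9 library than in each day 8 library, whereas the median of the 10 markers was 0.05 (-0.11 without KO67 of day 8 and 0.22 without KO67 of day 9) and their sum ran from 871 to 1310 CPM on day 8 and from 811 to 1450 CPM on day 9. Calls of this list were 1 to 3 as single libraries were left out, with 1 left without KO64 of day 8, KO67 of day 8 or KO68 of day 9. Markers of B cells (7 tested), T and NK cells (5), mast cells and basophils (9), erythroid cells (2), stromal cells (10), plasmacytoid dendritic cells (6) and type 1 conventional dendritic cells (8) had 0 called members each. Rag1, Gzma, Tpsab1, Mcpt4, Car1, Alas2, Rhag and Slc4a1 were at 0 in all 6 libraries. The part of other cell types in the changes above was not tested.

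Platelet and megakaryocyte genes were prominent among the largest falls, and a list of 31 tested genes made after these values were seen held 9 that fell and 0 that rose (median -0.61). Gp5, a subunit of the platelet receptor for von Willebrand factor, stood at 5.33, 4.06 and 6 CPM on day 8 and at 1.95, 1.45 and 2.67 CPM on day 9 (-1.34 ± 0.24, adjusted p = 0.00621). Gucy1b1, a subunit of soluble guanylate cyclase, stood at 5.11, 3.45 and 4.52 CPM and then at 1.34, 0.64 and 2.37 CPM (-1.60 ± 0.39, adjusted p = 0.0386). Mfsd2b, the sphingosine 1-phosphate exporter of platelets and red cells, stood at 4.16, 3.45 and 4.9 CPM and then at 1.68, 1.6 and 2.3 CPM (-1.16 ± 0.22, adjusted p = 0.0107). All were low and without overlap. Rab27b, a GTPase of granule secretion, Cavin2, a caveolar coat protein, Mmrn1, an alpha-granule protein, and Alox12, the platelet lipoxygenase, had changes of -1.16, -1.38, -1.22 and -1.17 (adjusted p = 0.0153, 0.037, 0.0321 and 0.0414). Itga2b, the platelet fibrinogen receptor subunit, and Nrgn, a calmodulin-binding protein, also fell, by 0.61 and 0.88. The summed level of the list overlapped between days (4270 to 4820 CPM and 3640 to 4880 CPM), while the mean log2 level did not, at 3.57 to 3.94 and then 2.77 to 3.38. Single libraries changed the count from 1 without KO67 of day 9 to 11 without KO67 of day 8, and Gp5 was called in every such fit.

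Of 24 cholesterol synthesis genes 23 had a positive change, 11 of them at an unadjusted p under 0.05, and 2 rose by the adjusted test. Over all 14535 genes tested, 1490 were higher at an unadjusted p under 0.05, and 1.31% rose by the adjusted test. The list median was 0.27, and 0.15 without KO67 of day 9. Dhcr7, which makes cholesterol from 7-dehydrocholesterol, stood at 37.2, 32.7 and 41.6 CPM and then at 53.3, 50.6 and 54.6 CPM (0.51 ± 0.11, adjusted p = 0.0165). Fdps, farnesyl diphosphate synthase, stood at 1.54, 2.88 and 2.24 CPM and then at 3.22, 6.84 and 6.21 CPM (1.28 ± 0.27, adjusted p = 0.0163), a level made uncertain by near-identical pseudogene copies. Of 17 fatty acid synthesis genes 11 were higher and 2 lower at an unadjusted p under 0.05, and 2 rose by the adjusted test (median 0.31, or 0.20 without KO67 of day 9). Of all 14535 genes, 1231 were lower at that unadjusted p. Scd2, a stearoyl-CoA desaturase, stood at 302, 292 and 196 CPM and then at 311, 654 and 671 CPM (1.05 ± 0.27, adjusted p = 0.0433), and the library labelled KO64 on day 9 was barely above the highest day 8 library. Fads1, the delta-5 desaturase, stood at 69.9, 73.8 and 72.5 CPM and then at 80.3, 114 and 100 CPM (0.45 ± 0.11, adjusted p = 0.0334). None of these 4 was called without KO64 of day 8 or without KO68 of day 9.

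Besides Cenpa, the rises with the smallest p belonged to no list. Tpcn1, an endolysosomal cation channel (chr5:120534153-120588673, minus strand), stood at 46.1, 43.6 and 44.3 CPM on day 8 and at 69.3, 67 and 69.4 CPM on day 9 (0.62 ± 0.07, adjusted p = 0.000111). Txndc16, a thioredoxin-domain protein of the endoplasmic reticulum, stood at 31.1, 28.4 and 27.9 CPM and then at 40.1, 39.7 and 43.7 CPM (0.50 ± 0.06, adjusted p = 0.000265). Man2a2, a Golgi mannosidase of N-glycan processing, stood at 94.2, 101 and 101 CPM and then at 134, 156 and 149 CPM (0.57 ± 0.08, adjusted p = 0.000687). In these 3 the spread within a day was far smaller than the step between days. Iqgap2, a scaffold of the actin cortex, stood at 37.2, 37.6 and 36.5 CPM and then at 53.7, 57.4 and 53.9 CPM (0.57 ± 0.08, adjusted p = 0.00155). All 4 kept their call with any KO library left out.

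Among called genes with an average log2 CPM over 1, no overlap between days and a symbol that is not a predicted-gene name, the largest rises beside Epx, Ocstamp and Prg3 were Gfra2, Pif1, Cdca3, Hic1, Oscp1, Cand2 and Ska3. Gfra2, a receptor for neurturin, stood at 0.735, 0.838 and 0.592 CPM and then at 1.27, 6.02 and 2.87 CPM (2.22 ± 0.46, adjusted p = 0.0159), highest in the library labelled KO67 on day 9. Hic1, a transcriptional repressor, stood at 1.54, 2.38 and 2.58 CPM and then at 5.55, 5.59 and 6.34 CPM (1.43 ± 0.27, adjusted p = 0.0107). Cdca3, a mitotic ubiquitin ligase factor, stood at 10.7, 18.7 and 6.76 CPM and then at 19.6, 41.8 and 36.9 CPM (1.44 ± 0.37, adjusted p = 0.0449). Its day 9 libraries began just above the highest day 8 library. Pif1, a DNA helicase, and Ska3, of the kinetochore, rose by 1.53 and 1.36. Cand2, Oscp1 and Ska3 overlap the abundant Rpl32, a pseudogene of Rpl28 and Sap18 on the opposite strand, so their counts are uncertain. None of these 7 genes was called without KO64 of day 8 or without KO68 of day 9.

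Of the 44 gene lists, 20 held at least 1 called member, 24 held none, and none held members called in both directions. Among lists with at least 5 tested members and no call, medians ran from -0.36 (stromal cells) to 0.50 (T and NK cells). Both ends moved with single libraries, to 0.41 for stromal cells without KO68 of day 8 and 1.33 for T and NK cells without KO67 of day 8. The 9 tested subunits of the Arp2/3 complex had 0 called members with edgeR on all libraries. The DESeq2 Wald test called 1, and edgeR without KO68 of day 8 called 1. At an unadjusted p under 0.05 there were 4, all lower, compared with 1231 lower of all 14535 genes. The median of the subunits was -0.10. Among the subunits Arpc2 had -0.21 ± 0.06 (adjusted p = 0.074) and Actr3 -0.21 ± 0.08 (adjusted p = 0.155). Of 42 actin regulators 1 rose, Fmnl3, a formin, at 35.8, 34.5 and 37.2 CPM and then 46.1, 49.3 and 45.6 CPM (0.39 ± 0.10, adjusted p = 0.0427), a call that, as single KO libraries were left out, held only without KO64 of day 9. Over all genes tested, 1.31% rose and 1.02% fell by the same test. Oxidative phosphorylation (76 genes), cytosolic ribosomal proteins (80) and glycolysis (23) had medians of 0.003, 0.08 and -0.01. Of 18 toll-like receptor genes 0 were called with edgeR on all libraries and at most 2 in any other fit. Tlr2 and Tlr4, sensors of lipoprotein and lipopolysaccharide, had -0.54 and -0.44 (adjusted p = 0.0873 and 0.0844). Dnaja1, a partner of Hsp70, and Slc25a20, the mitochondrial carnitine carrier, were the only called members of the heat shock and PPAR gamma lists, both lower (-0.30 and -0.35), and both were lost without KO64 of day 8, KO67 of day 9 or KO68 of day 9.

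**Figure D3:**
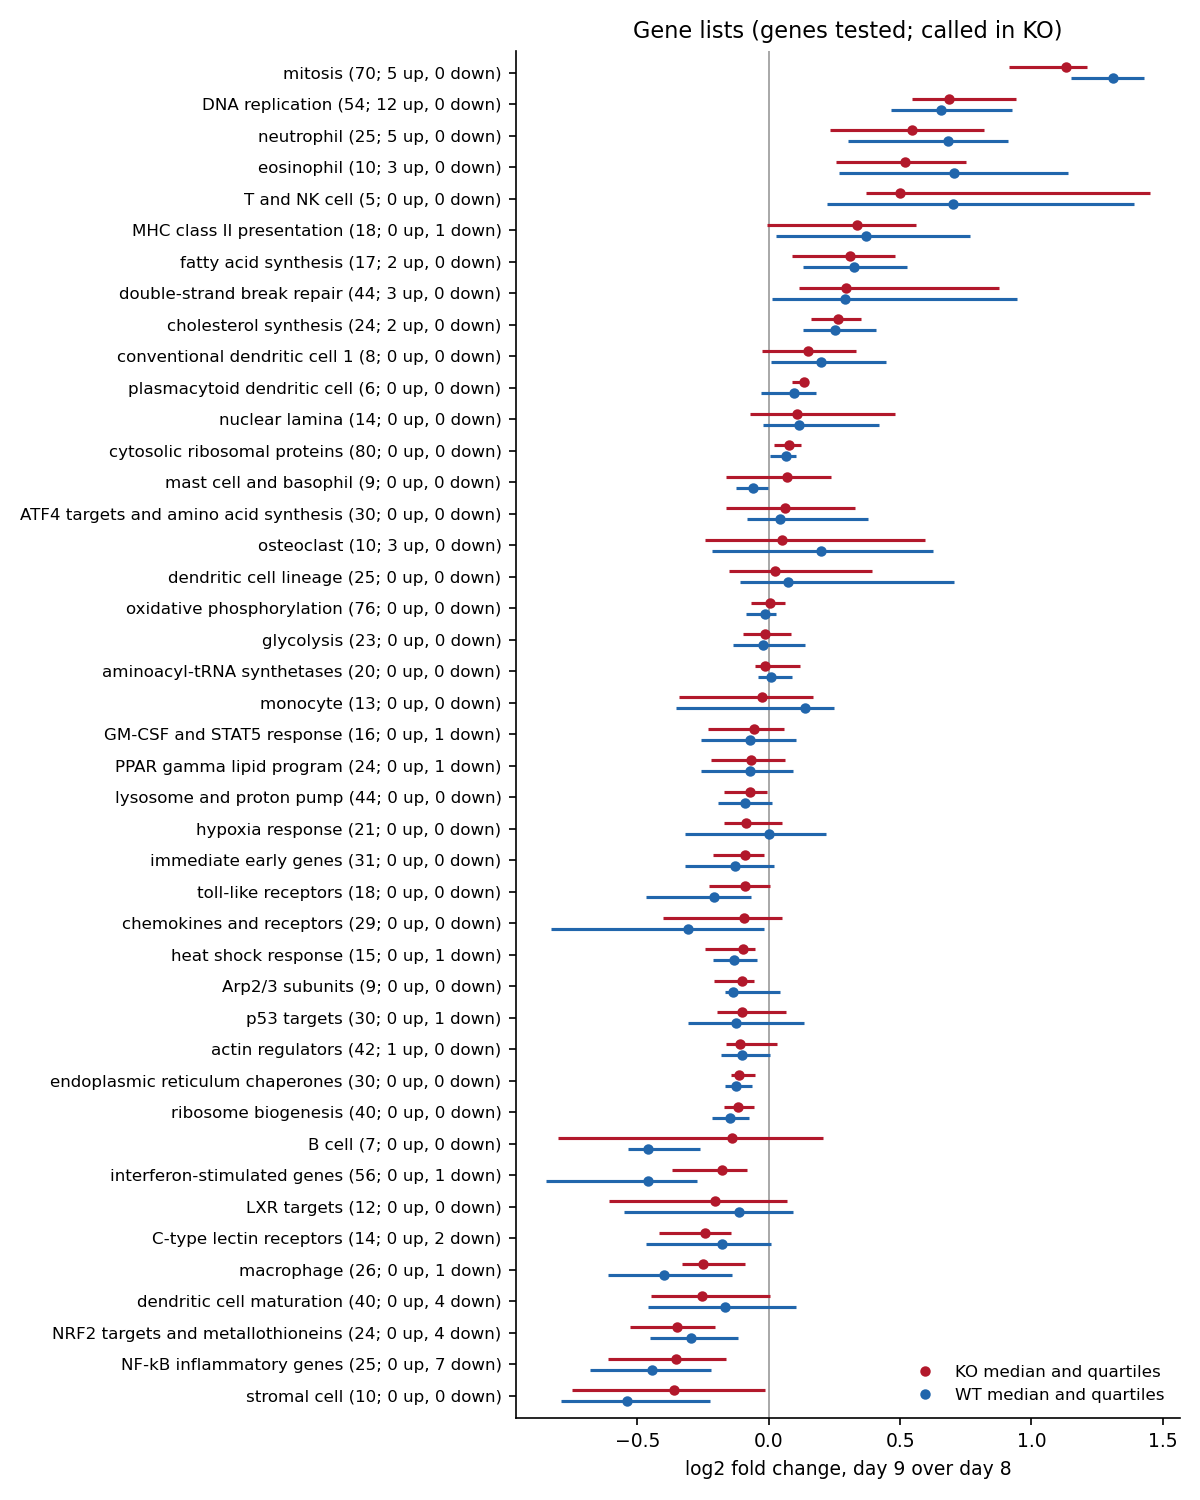
Median log2 fold change from day 8 to day 9 (x axis) of those of the 44 gene lists with at least 5 tested members (the added megakaryocyte and platelet list is not drawn) in KO (red) and WT (blue), with lines for the interquartile range over members and the numbers tested and called in KO beside each name. In KO, mitosis and DNA replication lie farthest to the right (1.13 and 0.69), and the stromal cell, NF-kB and NRF2 lists farthest to the left.

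Most genes called in KO were also called in WT cultures over the same day. The WT comparison, which shares no library with the KO comparison, called 785 genes (5.4% of those tested), 445 higher (3.06%) and 340 lower (2.34%). Called in both genotypes were 240 genes, 71% of the KO calls and 30.6% of the WT calls, and all 240 had the same direction. Of the 338 KO calls 335 had the same sign in WT, and of the 785 WT calls 777 had the same sign in KO. Genes are not replicates of each other, and as a description over all 14535 of them the fold changes of the genotypes had a Pearson r of 0.64 and a Spearman rho of 0.666. Sod2 had -0.89 in KO and -0.83 in WT, Sdc4 -1.24 and -1.36, Epx 2.07 and 2.33, Cenpa 0.85 and 0.81, and Tpcn1 0.62 and 0.57. The WT count also moved with single libraries, from 142 without WT65 of day 8 to 506 without WT65 of day 9. It was 360 without WT63 and 205 without WT66 of day 8, and 189 without WT63 and 210 without WT66 of day 9.

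No gene passed the test of the difference between the KO and the WT change. The count was 0 of 14535 (0%) with edgeR, with 171 at an unadjusted p under 0.05 and a smallest adjusted p of 0.999, and 0 with the DESeq2 Wald test. The median SE of the difference was 0.201, and a difference of over 4 SE (Rasgef1b, below) did not pass. Of the 338 KO calls 98 were not called in WT. Over all 338, called in WT or not, 9 had a difference at an unadjusted p under 0.05. Mitosis had 5 called members in KO and 43 in WT with medians of 1.13 and 1.31, and interferon-stimulated genes had 1 and 19 with medians of -0.18 and -0.46. The difference itself had 0 called members in either list. It was at an unadjusted p under 0.05 in 5 of the 56 interferon-stimulated genes. Among genes with an average log2 CPM over 1 and no predicted-gene name, the 3 of smallest p with a more positive change in KO were Rasgef1b, Zfp213 and Rgs2. Rasgef1b, a guanine nucleotide exchange factor induced by toll-like receptors, stood at 24.7, 24.5 and 27.3 CPM and then at 25.1, 21.7 and 20.2 CPM in KO. In WT it stood at 36.8, 37.6 and 47.3 CPM and then at 18.8, 19.3 and 18.7 CPM. The day 8 WT libraries were the highest, and the difference was 0.91 ± 0.19 (unadjusted p = 9.84e-05, adjusted p = 0.999). Rgs2, a regulator of G protein signalling, rose in KO, at 72.9, 63.3 and 71.2 CPM and then 117, 85.2 and 96 CPM (0.52 ± 0.10, adjusted p = 0.0107), and had 0.14 in WT, a difference of 0.39 at an unadjusted p of 0.0122. Zfp213, a zinc finger protein, had a difference of 0.49 (unadjusted p = 0.00877). On the other side and by the same limits, Numbl, a Numb relative, Cela1, an elastase, and Tchh, trichohyalin, had differences of -0.52, -0.91 and -0.95 (unadjusted p = 0.013, 0.0133 and 0.0149).

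**Figure D4:**
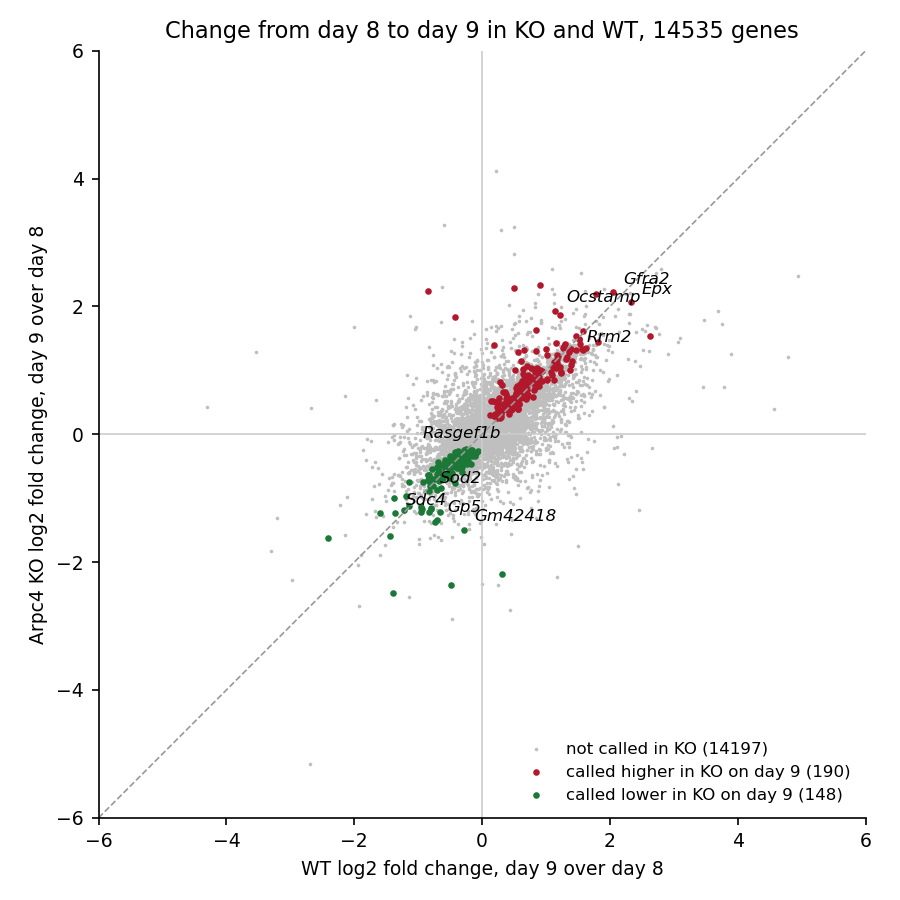
Log2 fold change from day 8 to day 9 in KO (y axis) against that in WT (x axis) for 14535 genes, with genes called in KO coloured by direction and the dashed line marking equal change. The fold changes have a Pearson r of 0.64, and 335 of the 338 KO calls have the same sign in both genotypes.

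The days before and after place this step within the culture, as levels without a test. The mean level of the NF-kB list in KO was 5.06 ± 0.15 log2 CPM (SD, n = 3) on day 7 and 5.41 ± 0.04 by day 8, and it stood at 4.98 ± 0.08 a day later and at 4.61 ± 0.11 on day 10. It was highest on day 8, and in WT too the day 8 level was the highest of the 4, at 5.25 ± 0.10. Sod2 in KO was also highest on day 8, with 98.9 ± 6.31 CPM on day 7 and 98.2 ± 8.42 CPM on day 10, both below day 9. The mean level of replication genes in KO was 3.74 ± 0.21, 4.03 ± 0.41, 4.77 ± 0.38 and 4.85 ± 0.38 log2 CPM over the 4 days, and that of mitosis genes 3.56 ± 0.47, 3.67 ± 0.76, 4.79 ± 0.55 and 5.07 ± 0.63. For both lists the group means of days 9 and 10 lay above those of days 7 and 8, with SDs as wide as the steps within each pair of days. The megakaryocyte and platelet list went from 4.19 to 3.80, 3.17 and 2.53 log2 CPM, lower on each day. The neutrophil list was at 6.26 ± 0.52, 5.73 ± 0.25, 6.18 ± 0.15 and 6.14 ± 0.33 log2 CPM, lowest on day 8. Tpcn1, which rose from day 8 to day 9, was at 127 ± 2.52 CPM on day 7 and 81.7 ± 4.53 CPM on day 10, and Sdc4, which fell, was at 16.6 ± 1.27 CPM on day 7. For both genes day 8 was therefore the far end of the course and day 9 lay between it and day 7.

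**Figure D5:**
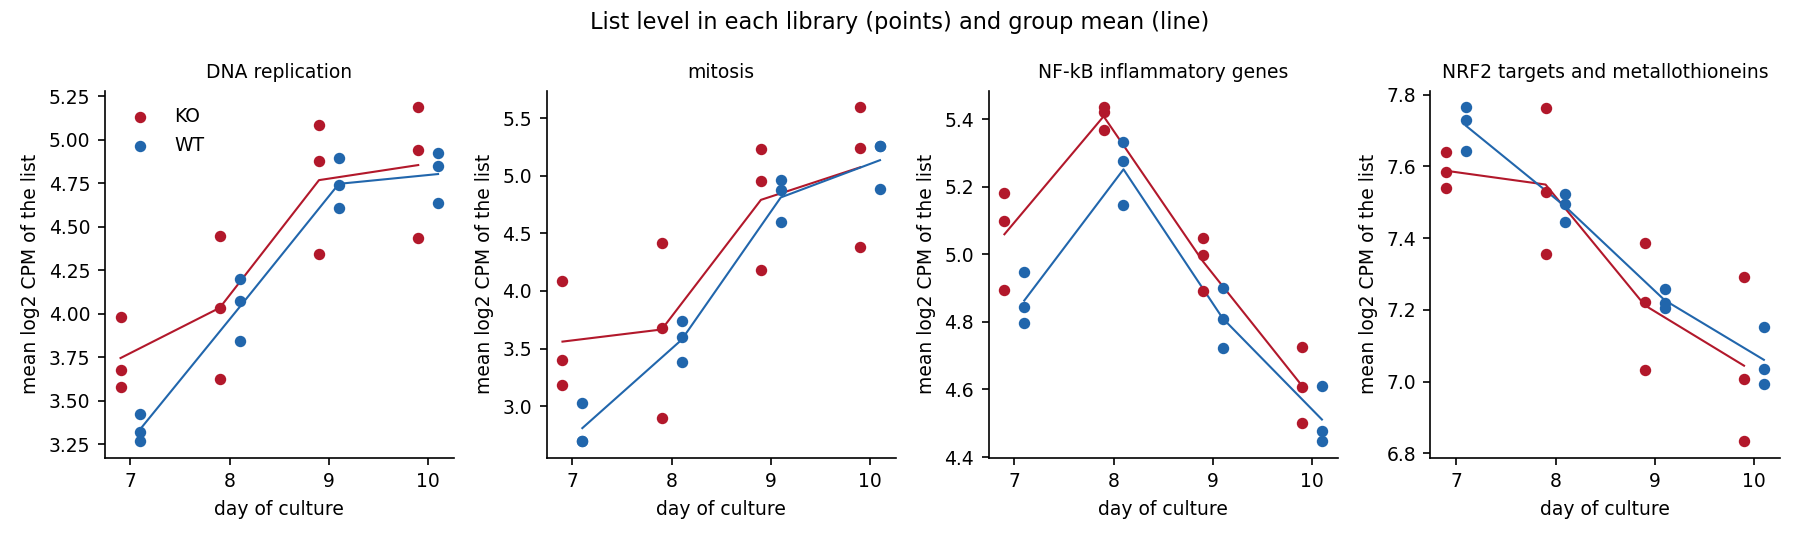
Mean log2 CPM of the members of 4 gene lists (y axis) on days 7 to 10 (x axis) in KO (red) and WT (blue), with points for libraries and lines through the group means of 3. The NF-kB list peaks on day 8 in both genotypes, and the replication and mitosis lists are higher on days 9 and 10 than on days 7 and 8.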

How the data were processed

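RNA was measured by strand-specific, poly(A)-selected, paired-end sequencing, per the labels' protocols, which name 2 library kits without saying which library had which. The authors deposited raw counts per gene and TPM per gene for 24 libraries, with an annotation table of gene features. Per the submitters' processing notes FastQC 0.11.9, STAR 2.6.1, DESeq2 1.22.2 and the mm10 build were used. Their roles, the counter, the annotation and the strand setting are not given in the sources used here. Of the gene IDs, 55394 matched GENCODE M21, ignoring the version.

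The counts of all 24 libraries were fitted in edgeR 4.0.16 (R 4.3.3) with TMM scaling, filterByExpr over the 8 groups and 1 coefficient per group, with 16 residual degrees of freedom and Benjamini-Hochberg adjustment at 0.05. The deposited TPM served for shares and for a fit in limma 3.58.1 on log2(TPM + 1). DESeq2 1.42.0 gave another alternative. The fitting steps were tested on simulated data. List levels are mean log2 CPM with a prior count of 2. Sequences came from RefSeq promoters (GRCm38.p6), and tables and plots used Python 3.11.15.

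The members and the 44 gene lists were chosen with earlier results of these data known, and the megakaryocyte and platelet list was added after its values were seen. Named by rule were Arpc4, the 10 largest and 5 smallest-p calls per direction with an average log2 CPM over 1 and no overlap, up to 3 called members per list and direction (the 2 of smallest p where none was called), the 3 of smallest p per direction for the difference, and marker checks. Other genes named were chosen after their values were seen.

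Whether numbers pair the libraries was checked by correlating deviations from group means over 11111 genes. In KO, same-numbered libraries of days 8 and 9 had r = -0.12, 0.80 and -0.24 for KO64, KO67 and KO68, whereas KO68 of day 8 with KO64 of day 9 had 0.71 and KO64 of day 8 with KO68 of day 9 had 0.38, so the numbers were not used as pairs. Whether numbers were exchanged between KO64 and KO68 was not tested. Replicate libraries differed beyond sampling noise in every pair, and none was merged. The tally of the DNA repair list is not reported here.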

Additional observations from a re-analysis of the deposited data

How the results depend on the processing

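The KO count of 338 was 898 with the DESeq2 Wald test, 597 without a filter on low counts, 0 with only the 6 KO libraries, 75 with a log2 fold change of 1 or more in size required, 564 with Xist as a covariate, 852 without the libraries of high Ddx3y (added after seeing the data), and 41 to 906 with single libraries left out. With limma on TPM the KO count was 231, and 161 of these were among the 338. The WT count of 785 was 1325 with the Wald test, 2123 with only its own 6 libraries, 218 with that fold change required, 521 with limma on TPM, and 142 to 506 with single libraries left out. The fold limit can only remove calls, and the cause of the other shifts was not tested. The count of differences between genotypes was 0 in each of the alternatives, with 81 to 407 genes at an unadjusted p under 0.05.

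The mouse number as a replicate block gave 307 KO calls, 258 of them shared with the 338, 805 in WT and 0 for the difference. Because the libraries labelled KO64 and KO68 do not follow their numbers between the days, this block is only a setting. None of the 65 called genes that the naming rule picked changed sign in any of 17 alternative fits, while 7 of the 59 picked genes that were not called did (Cd3g, Epor, Spib, Numbl, Csf2ra, Xist and Ddx3y). Of the 65 called 0 kept the call in all of them, since the fit on 6 libraries calls none (lowest adjusted p 0.122). Of 45 list medians 14 changed sign in some fit.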

Other observations

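Some called genes stood outside the lists and were chosen after their values were seen, so the following is a description. Ift80, a subunit of the anterograde complex of intraflagellar transport, stood at 5.92, 6.87 and 4.06 CPM on day 8 and at 8.53, 11.4 and 10.8 CPM on day 9 in KO64, KO67 and KO68 (log2 fold change 0.87, adjusted p = 0.031). Ift122 and Wdr19, of the retrograde complex, had 0.50 and 0.51 (adjusted p = 0.034 and 0.046), Bbs9, of the BBSome coat, 0.47 (adjusted p = 0.039), and Kif9, a kinesin, 1.02 (adjusted p = 0.015). Arntl, which encodes the circadian clock activator BMAL1, stood at 7.5, 7.14 and 6.42 CPM and then at 9.25, 9.78 and 9.41 CPM (0.43, adjusted p = 0.026). Nr1d2, which encodes the clock repressor REV-ERB beta, stood at 26.9, 20.5 and 26.9 CPM and then at 19.2, 11.9 and 16.5 CPM (-0.64, adjusted p = 0.043). For all of these genes no enrichment was tested.

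Ifnar1, a chain of the type I interferon receptor, stood at 213, 184 and 212 CPM on day 8 and at 163, 144 and 150 CPM on day 9 (-0.41, adjusted p = 0.0063). Prdx6, a peroxiredoxin, fell by 0.40 (adjusted p = 0.0151). Gm42418, a predicted gene, stood at 389, 168 and 233 CPM in KO on day 8 and at 101, 84.2 and 95.8 CPM on day 9 (-1.49 ± 0.25, adjusted p = 0.0034). In WT its change was -0.29 (adjusted p = 0.54), and the difference of -1.20 had an unadjusted p of 0.0023 and did not pass the adjusted test. Leaving this gene and the mitochondrial genome out before scaling gave 337 calls in place of 338. On the TPM scale the most abundant called genes were Csf1r, with a mean of 661.2 on day 8 and 545.5 on day 9, and Wfdc21, a small secreted protein of neutrophils, with 660.2 and 1226.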
